A study of Rattus norvegicus with 22 samples.

Results

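A set of 10 genes that mark Kupffer cells and other tissue macrophages was followed through rat liver RNA-seq libraries: Cd68, Cd163, Clec4f, Marco, Vsig4, Adgre1, Csf1r, C1qa, C1qb and C1qc. They were taken by symbol, and all 10 were found among the 14971 genes of the deposited table, with reads in each of the 22 libraries. The libraries came from rats that had either a hepatic vagotomy, in which the branch of the vagus nerve to the liver is severed, or a sham operation at 12 weeks of age. After 5 to 6 days of recovery the rats breathed ozone at 1.0 ppm or air for 4 h on 1 or 2 days, and a liver piece of 10 to 20 mg from a similar place was taken within 2 h. There were 5 vagotomised ozone rats, 6 sham ozone rats, 6 vagotomised air rats and 5 sham air rats. All rats therefore had surgery, and the labels used here do not say which had 1 and which had 2 days of exposure, nor give strain or sex.

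Kupffer cells are the resident macrophages of the liver. They sit in the sinusoids, take up bacteria, lipoproteins, aged red cells and complement-coated particles, and depend on signals through the receptor CSF1R. Clec4f and Vsig4 mark them most closely in rodents: Clec4f encodes a galactose-binding lectin and Vsig4 a receptor for complement C3 fragments. Marco encodes a class A scavenger receptor, Cd163 the scavenger receptor for haptoglobin-haemoglobin complexes, Cd68 a lysosomal glycoprotein of phagocytes, and Adgre1 the adhesion receptor F4/80. C1qa, C1qb and C1qc encode the chains of C1q, the recognition unit of the classical complement pathway, which is made largely by macrophages.

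Values are read counts that the submitters had divided by library size factors, here called normalised counts. Libraries held 14098863 to 21141337 reads, and the members 48 to 192 reads (Cd68, the fewest) up to 1325 to 3677 reads (Clec4f, the most) per library. All 10 members passed the minimum mean of 10 that 12424 genes passed. In 4 libraries the row for 5.8S ribosomal RNA lay under 200, at 38.1 to 179.5, whereas the other 18 had at least 342. These were library 1 of vagotomised ozone, library 3 of sham ozone, and libraries 1 and 5 of vagotomised air. Sham air had none. Results are given with and without them. Changes are log2 fold changes of the normalised count + 1 with standard errors, tested with limma across all genes and called at a Benjamini-Hochberg adjusted p under 0.05. The labels give no batches, and the p-values measure the spread between these rats' liver samples. In a liver piece, fewer cells of a type and less RNA per cell cannot be told apart.

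The promoters of the 4 members on which the ozone results or the C1q ratios turn are shown for their 250 bases before the annotated start, from the RefSeq table of build GRCr8, with letters searched as motifs in capitals. GAGGAA is the core bound by PU.1, the master factor of macrophage genes, TGAGTCA the AP-1 site and TATAAA the TATA box, each sought on both strands, and no matches overlapped. Of the 10 members, 9 had an entry. The windows are chr10:54882442-54882691 (Cd68, minus strand), chr9:2329190-2329439 (Adgre1, plus strand), chr5:154419934-154420183 (C1qa, minus strand) and chr5:154407828-154408077 (C1qb, minus strand), and the sequences read 5′ to 3′ along the gene's own strand.
Cd68: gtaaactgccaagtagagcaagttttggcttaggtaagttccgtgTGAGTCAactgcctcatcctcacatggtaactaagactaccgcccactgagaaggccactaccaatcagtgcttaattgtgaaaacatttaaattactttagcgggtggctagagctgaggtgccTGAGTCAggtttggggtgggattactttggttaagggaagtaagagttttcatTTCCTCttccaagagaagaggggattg
Adgre1: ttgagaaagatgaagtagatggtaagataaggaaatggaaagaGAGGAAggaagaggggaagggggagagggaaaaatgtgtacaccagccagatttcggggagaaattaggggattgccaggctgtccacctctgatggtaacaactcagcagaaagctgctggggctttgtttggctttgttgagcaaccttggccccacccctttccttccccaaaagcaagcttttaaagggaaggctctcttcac
C1qa: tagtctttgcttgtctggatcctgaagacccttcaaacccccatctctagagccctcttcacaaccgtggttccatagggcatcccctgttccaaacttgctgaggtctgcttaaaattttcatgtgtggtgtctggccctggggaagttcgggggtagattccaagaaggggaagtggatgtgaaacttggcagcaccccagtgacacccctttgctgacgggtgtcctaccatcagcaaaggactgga
C1qb: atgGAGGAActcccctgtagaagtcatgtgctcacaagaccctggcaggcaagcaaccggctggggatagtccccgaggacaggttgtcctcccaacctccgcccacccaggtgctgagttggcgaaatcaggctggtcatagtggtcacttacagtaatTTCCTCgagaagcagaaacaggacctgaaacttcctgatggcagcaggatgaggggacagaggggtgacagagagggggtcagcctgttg
The PU.1 core was found in 5 of the 9 promoters, those of Cd68, Marco, Adgre1, Csf1r and C1qb, and in 23.3% of 33469 rat promoters of this length. In Cd68 it began at position -27 from the start, beside AP-1 sites at -205 and -80, and in C1qb at -247 and -90. AP-1 was found in Cd68 alone of the 9, against 4.05% of all promoters, and the TATA box in Marco alone, against 12.9%. C1qa showed none of the 3 motifs in this window. C1qb, C1qc and C1qa stand next to each other on chromosome 5 in that table.

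**Figure D1:**
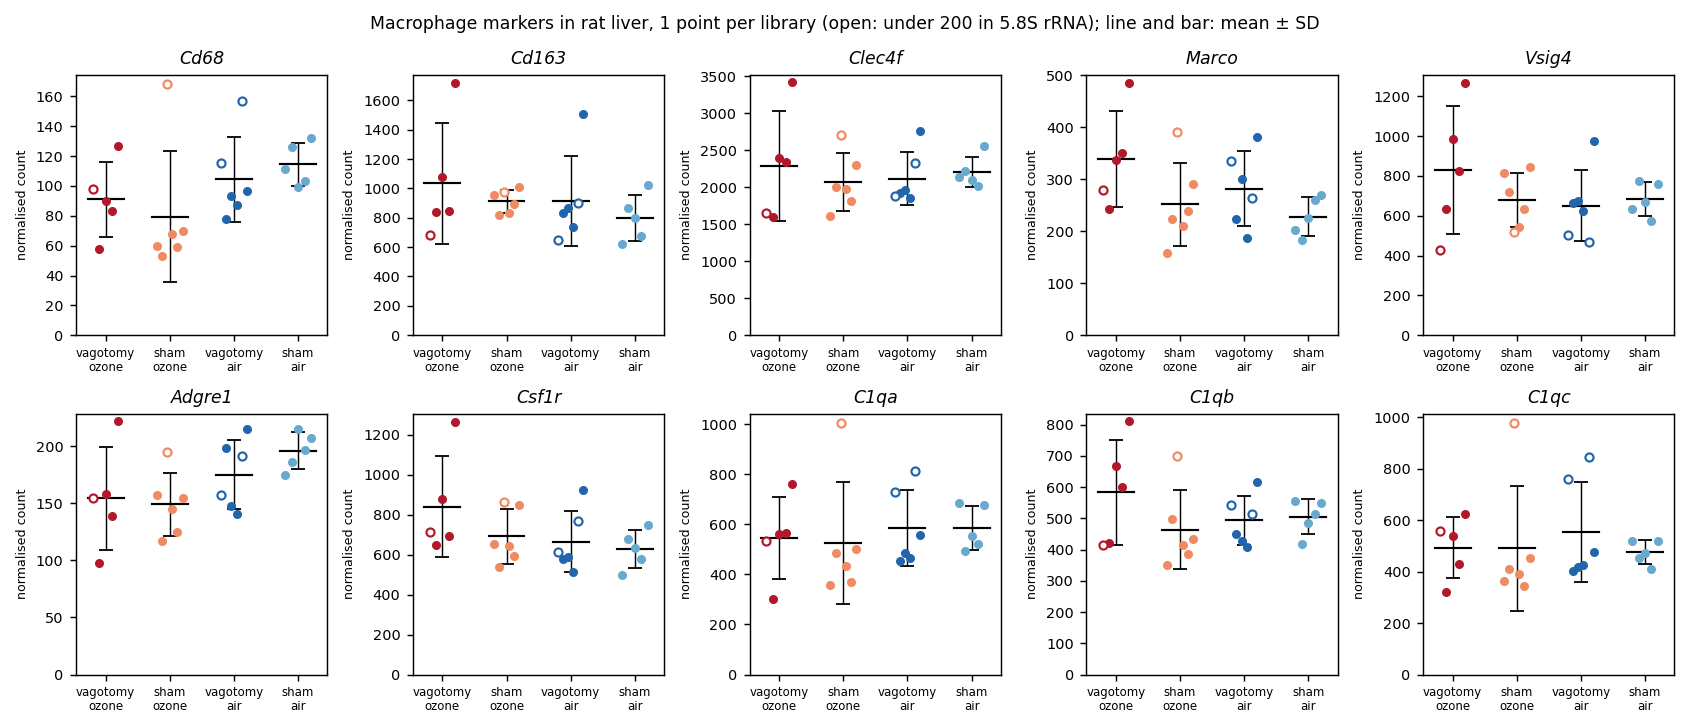
Normalised counts of the 10 members in every library, in vagotomised ozone, sham ozone, vagotomised air and sham air rats, with the group mean and SD; open points are the 4 libraries under 200 in 5.8S ribosomal RNA. The Cd68 values of sham ozone rats lie mostly under those of sham air rats, apart from 1 open point at 168.

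Ozone in sham rats was followed by a lower level of Cd68, with the other 9 members showing no called change. Cd68 was lower by 0.64 ± 0.24 on the log2 scale (SE), a fold of 0.643. The Kupffer-restricted genes Clec4f and Vsig4 had changes near 0, of -0.11 ± 0.16 and -0.02 ± 0.21. Over all genes tested, 28.4% were called in this comparison, 14.6% as higher and 13.8% as lower, so 1 called member in 10 did not stand above the background share.

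Cd68 had 53.0, 63.8 and 168.1 normalised counts as lowest, median and highest in sham ozone rats, against 99.4, 103.3, 111.5, 125.9 and 132.4 in sham air rats. In sham ozone rats 5 of 6 libraries lay between 53.0 and 69.6, under every sham air library, and library 3, which is low in 5.8S, lay above them all. The groups overlapped for that reason. The means were 79.5 ± 43.8 (SD, n = 6) in sham ozone and 114.5 ± 14.3 (SD, n = 5) in sham air rats, and the adjusted p was 0.0491 (limma, 95% interval -1.13 to -0.14). The call was lost in 17 of 22 fits that each left out 1 library, with adjusted p up to 0.11, and stood only without sham ozone library 3, vagotomised air library 2 or 5, or vagotomised ozone library 2 or 5. It was also lost with edgeR (adjusted p 0.134) and DESeq2 (0.12). Without the 4 libraries low in 5.8S the change was -0.88, with adjusted p 0.000274, and the groups no longer overlapped.

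Adgre1 was the next lower member. It had 117.1, 149.5 and 195.2 normalised counts as lowest, median and highest in sham ozone rats, against 174.9, 186.4, 196.9, 207.3 and 214.6 in sham air rats. The groups overlapped, with the highest sham ozone value, again library 3, inside the range of sham air. The change was -0.41 ± 0.16 (95% interval -0.75 to -0.07, limma adjusted p 0.0668), which missed the threshold. Without the 4 libraries low in 5.8S it was -0.49 with adjusted p 0.0285, and Adgre1 and Cd68 were then the 2 members of 10 whose sham ozone values all lay under those of sham air, where 21.0% of all genes did not overlap. With all libraries no member was free of overlap, against 15.4% of all genes. These 2 members were also the ones called without the 4 libraries, where 35.8% of all genes were called.

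The complement chains and scavenger receptors showed no call. C1qa averaged 525 ± 242 in sham ozone (SD, n = 6) and 586 ± 88.2 in sham air rats (SD, n = 5), C1qb 464 ± 125 and 505 ± 56.4, and C1qc 490 ± 242 and 476 ± 46.2. Their changes were -0.24 (C1qa), -0.15 (C1qb) and -0.06 (C1qc), with limma adjusted p of 0.466, 0.55 and 0.884. They were -0.45 (C1qa, adjusted p 0.0509), -0.28 (C1qb, 0.153) and -0.28 (C1qc, 0.115) without the 4 libraries low in 5.8S, none of them called. Vsig4 averaged 679 ± 137 in sham ozone and 683 ± 85.0 in sham air rats. Clec4f averaged 2073 ± 387 in sham ozone and 2206 ± 208 in sham air rats, with a 95% interval of the change from -0.44 to 0.23, and a change of -0.19 without the 4 libraries (adjusted p 0.364). Marco, Cd163 and Csf1r were near or above the level of sham air, with changes of 0.10, 0.21 and 0.13 and adjusted p of 0.453 to 0.758 (limma). Of the members, 7 had negative and 3 positive changes, with a median of -0.08 against 0.0081 for all genes. The median of the members was -0.23 without the 4 libraries low in 5.8S.

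**Figure D2:**
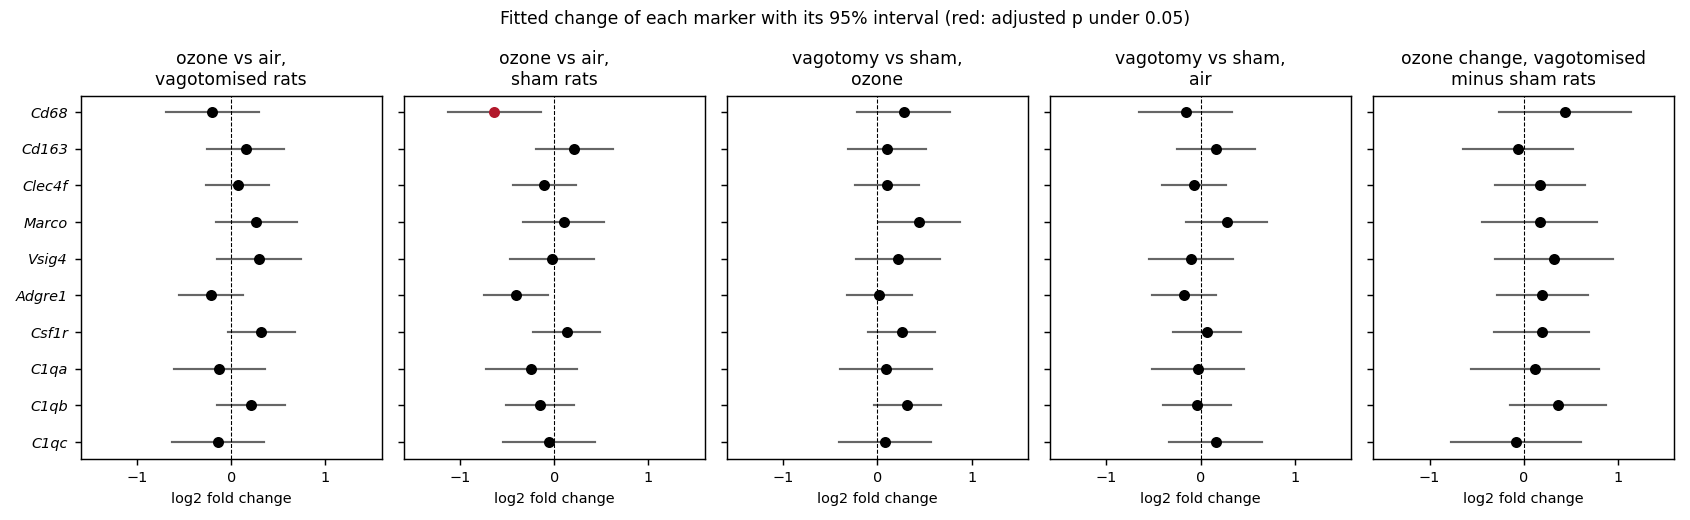
Log2 fold changes of the 10 members with their 95% intervals in 5 comparisons, each panel naming the groups compared; red marks an adjusted p under 0.05. Only Cd68 in sham rats is red, and the intervals of most members cross 0.

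Further genes on the macrophage and complement lists were called in sham rats. Their counts are to be read against the 14.6% of all genes that were higher and 13.8% that were lower. Among 24 tested identity genes beyond the members, 1 rose and 3 fell with a median of -0.25: Cd14, a co-receptor for bacterial lipopolysaccharide, rose by 0.43 ± 0.12 (adjusted p 0.0119, limma), and Cd5l, Fcgr2b and Hmox1 fell by 0.52, 0.40 and 0.72. Of 13 tested growth and transcription factors, 2 rose and 5 fell with a median of -0.41. Rxra rose by 0.57, whereas Csf1, Maf, Irf8, Nr1h3 and Zeb2 fell by 1.07, 0.87, 0.41, 0.41 and 0.57. Nr1h3 and Zeb2 are needed for Kupffer cell identity in mice, and Csf1 encodes a ligand of the receptor CSF1R. These values come from whole liver pieces, and which cells the transcripts came from was not tested. Fcgr2b is also on the list of sinusoidal endothelial markers. Among complement genes 4 of 16 fell (C1s, C5 and Cr1l among them), among cytokines and chemokines 4 of 9 (Ccl24, Ccl4, Ccl9 and Cxcl16), and among haem clearance genes 2 of 10 (Blvra and Hmox1). Of 35 called list genes beyond the members, 21 kept their call in every alternative and in every fit without 1 library, and 14 lost it in at least 1, namely Cd5l, Fcgr2b, Irf8, Zeb2, Blvra, Ccl9, Cxcl16, Cr1l, Cd53, Csf3r, Cps1, Cyp2e1, Col3a1 and Colec10.

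Some markers of other cells were also called, in counts to be read against the 14.6% of all genes that were higher and 13.8% that were lower. Pan leukocyte genes fell in 3 of 9 (Ptprc, Lcp1 and Cd53), and their summed level was 667 to 1016 normalised counts in sham ozone rats and 1002 to 1155 in sham air rats. Monocyte markers fell in 1 of 4: Vcan, the proteoglycan versican, fell by 1.62 ± 0.22 (adjusted p 1.05e-05, limma). The 7 monocyte markers found summed to 217 to 277 in sham ozone and 361 to 455 in sham air rats. That sum includes Vcan, at 25.4 to 57.6 in sham ozone and 110.6 to 155.6 in sham air rats. The sums of the members overlapped, at 5448 to 8508 in sham ozone and 5863 to 7443 in sham air rats. Hepatocyte markers rose in 4 of 10 (Hnf4a, Tat, Cyp2e1 and Cps1) and fell in none. Csf3r fell among 2 tested neutrophil markers, and T and NK cell (4), B and plasma cell (1), cholangiocyte (4) and erythroid markers (3) had no call. Of 3 tested dendritic cell markers Zbtb46 rose by 0.65 and Clec9a fell by 0.76, and of 11 stellate cell markers Dcn rose by 1.27 while Pdgfrb, Col3a1 and Colec10 fell by 0.87, 0.80 and 0.58. Fcgr2b was the 1 called gene of 11 sinusoidal endothelial markers. The part of these markers in the levels of the members was not tested. Without the 4 libraries low in 5.8S, 8 of 24 identity genes and 7 of 13 factors fell in sham rats. So did 7 of 16 complement genes, 7 of 9 pan leukocyte genes and 4 of 11 sinusoidal endothelial markers. Of the T and NK cell markers 1 of 4 fell (Prf1, by 0.90), and of cytokines and chemokines 4 of 9. In that fit 1 identity gene, 2 factors and 4 of 10 hepatocyte markers rose. There 35.8% of all genes were called in either direction, and the share called lower alone was not computed.

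Ozone in vagotomised rats was followed by no called change in any of the 10 members, where 21.1% of all genes were called, 11.4% as higher and 9.63% as lower. Without the 4 libraries low in 5.8S there was again no called member, against 22.6% of all genes. Cd68 had 57.6, 83.2, 90.1, 98.2 and 126.9 normalised counts in vagotomised ozone rats, against 77.8, 94.8 and 156.6 as lowest, median and highest in vagotomised air rats. The groups overlapped across most of their range. The change of Cd68 was -0.20 ± 0.24 (limma adjusted p 0.612). Csf1r had the largest change among the members, 0.32 ± 0.17, with 648, 693, 713, 877 and 1266 in vagotomised ozone rats and 512, 601 and 923 as lowest, median and highest in vagotomised air rats (adjusted p 0.206). All 10 members overlapped between these groups, against 11.7% of all genes that did not, and the same held without the 4 libraries, against 27.6%. Vsig4, Marco and C1qb had changes of 0.30, 0.27 and 0.21, and Clec4f of 0.07, with a 95% interval from -0.27 to 0.40. The median of the members was 0.11, against -0.0084 for all genes. That median was 0.17 without the 4 libraries, with changes of 0.37 for C1qb (adjusted p 0.114), 0.17 for Clec4f (0.532) and -0.04 for Cd68 (0.909).

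In the same rats 1 of 24 other identity genes fell, Slc40a1 by 0.33, the iron exporter, and 1 of 13 growth and transcription factors, Maf by 0.58. Of all genes 9.63% were called lower. Of 9 tested cytokines and chemokines 2 fell, Ccl24 and Ccl4, by 0.97 and 0.92. Of 16 complement genes 3 fell, C1s and C1r among them, by 0.47 and 0.38. The monocyte marker Vcan fell by 1.32 (1 of 4), the neutrophil marker Csf3r by 0.90 (1 of 2) and the leukocyte gene Lcp1 by 0.45 (1 of 9). Lyve1, an endothelial receptor for hyaluronan, rose by 0.51 (1 of 11 sinusoidal endothelial markers), where 11.4% of all genes were called higher. Of the 10 hepatocyte markers, Apoa1 rose by 0.37 and Fgb fell by 0.47. The calls of Slc40a1, Ccl24, C1r, Csf3r, Lcp1 and Apoa1 were each lost in at least 1 alternative or fit without 1 library.

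The difference of the ozone change between vagotomised and sham rats was called in no gene at all (0% of 12424 in limma and in edgeR, 16 genes in DESeq2, and 1147 genes at an unadjusted p under 0.05), and no member passed the test. For Cd68 the difference was 0.44 ± 0.34 (95% interval -0.26 to 1.14, adjusted p 0.755), and 0.84 with adjusted p 0.205 without the 4 libraries low in 5.8S. For C1qb it was 0.36 ± 0.25 (adjusted p 0.706), and 0.65 with adjusted p 0.276 without them. For Clec4f it was 0.17 ± 0.23, and 0.36 without them (adjusted p 0.551). For Cd163 it was -0.06 ± 0.28, and -0.01 without them (adjusted p 0.989).

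Averaged over both kinds of surgery, ozone was followed by a lower level of Adgre1, by 0.31 ± 0.12 (95% interval -0.55 to -0.07, adjusted p 0.0377), the F4/80 receptor gene. This was 1 member of 10, where 39.1% of all genes were called, 20.2% as higher and 18.9% as lower. The call was lost in 10 of 22 fits that left out 1 library (sham air 3, 4 or 5, vagotomised air 2, 5 or 6, sham ozone 2 or 5, vagotomised ozone 2 or 4), with adjusted p up to 0.0862, and stood under edgeR (0.0441) and DESeq2 (0.0446). Cd68 was lower by 0.42 ± 0.17, with adjusted p 0.0532, and was called without the 4 libraries low in 5.8S (-0.46, adjusted p 0.00426), as was Adgre1 (-0.36, adjusted p 0.0285), where 42.7% of all genes were called. Clec4f had a change of -0.02, with an interval from -0.26 to 0.22, and the remaining 7 members had adjusted p from 0.153 to 0.881.

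Vagotomy in ozone rats had no called member, where 1.34% of all genes were called, and none without the 4 libraries low in 5.8S, against 2.19%. Marco had 243, 279, 337, 352 and 485 normalised counts in vagotomised ozone rats, against 159, 231 and 390 as lowest, median and highest in sham ozone rats. The ranges overlapped, with vagotomised library 5 the highest of all. The change of Marco was 0.45 ± 0.21 (95% interval 0.02 to 0.88, adjusted p 0.312), and 0.64 with adjusted p 0.0985 without the libraries low in 5.8S. C1qb averaged 583 ± 169 in vagotomised ozone rats (SD, n = 5) and 464 ± 125 in sham ozone rats (SD, n = 6), a change of 0.32 ± 0.17 (adjusted p 0.408), and 0.55 with adjusted p 0.0645 without the libraries low in 5.8S. Cd68 had a change of 0.28 (adjusted p 0.65), and 0.48 without them (adjusted p 0.125). All 10 changes were positive, with a median of 0.16 against -0.01 for all genes, and with a median of 0.32 without the libraries low in 5.8S. This rested in part on library 5 of vagotomised ozone, which held the highest value of its group for all 10 members: without it the changes of Adgre1, C1qa, C1qc, Cd163 and Clec4f were negative, at -0.12, -0.05, -0.02, -0.10 and -0.06. No member was free of overlap, against 2.12% of all genes, nor without the 4 libraries, against 6.85%.

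Vagotomy in air rats had no called member and no called gene (0% of 12424 genes in limma, with 387 at an unadjusted p under 0.05, and 0 in edgeR and DESeq2). Cd68 averaged 104.5 ± 28.4 in vagotomised air rats (SD, n = 6) and 114.5 ± 14.3 in sham air rats (SD, n = 5). Marco averaged 282 ± 71.7 and 228 ± 37.1, a change of 0.28 ± 0.21. All 10 adjusted p-values were 1. With all libraries no member was free of overlap, against 0.346% of all genes. Without the 4 libraries low in 5.8S, of the 10 members Cd68 alone did not overlap, at 77.8 to 96.4 in vagotomised air and 99.4 to 132.4 in sham air rats, against 2.59% of all genes, and its change was not called (-0.36, adjusted p 0.803). Averaged over both exposures, vagotomy gave 0.36 ± 0.15 for Marco (adjusted p 0.434), and 0.113% of all genes were called.

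Csf1, which encodes a ligand of the receptor CSF1R, showed a pattern that the receptor gene did not. Csf1 had 173, 184, 212, 238 and 263 normalised counts in vagotomised ozone rats. In sham ozone rats it had 70.8, 123.6 and 179.9 as lowest, median and highest, in vagotomised air rats 169, 242 and 311, and in sham air rats 225, 230, 238, 246 and 328. All 6 sham ozone values lay under all 5 sham air values, and only the highest of them reached into the range of vagotomised ozone rats. Csf1 fell by 1.07 ± 0.20 after ozone in sham rats (adjusted p 0.000382), had a change of -0.15 ± 0.20 after ozone in vagotomised rats (adjusted p 0.662), and was higher by 0.83 ± 0.20 in vagotomised than in sham rats after ozone (adjusted p 0.0442). The first and the last of these share the sham ozone rats. The last was lost in 13 of 22 fits that left out 1 library (sham air 2, 3 or 4, vagotomised air 2 or 4, sham ozone 1, 2 or 5, or any vagotomised ozone library), with adjusted p up to 0.133, and with edgeR (0.0535), quantile normalisation (0.0525) and only the groups compared (0.149), and the difference of the ozone changes, 0.92 ± 0.29, was not called (adjusted p 0.375). Csf1r over the same groups averaged 840 ± 254 in vagotomised ozone, 691 ± 136 in sham ozone, 664 ± 153 in vagotomised air and 627 ± 94.2 in sham air rats. Il34, also on the list of growth factors, averaged 34.5 ± 7.1 in vagotomised ozone and 34.0 ± 8.9 in sham ozone rats (SD). Its means were 49.4 ± 12.2 in vagotomised air and 54.1 ± 23.3 in sham air rats (SD). It was called after ozone in neither sham nor vagotomised rats.

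Cd14 moved the other way. It had 1148, 1166, 1170, 1297 and 1366 normalised counts in vagotomised ozone rats, against 1442, 1758 and 2190 as lowest, median and highest in sham ozone rats, with no overlap. It was lower by 0.53 ± 0.12 after vagotomy in ozone rats (adjusted p 0.0385, lost in 7 of 22 fits that left out 1 library: sham ozone 1, 2 or 3, or vagotomised ozone 2, 3, 4 or 5, with adjusted p up to 0.111). It was also lost with equal totals (adjusted p 0.0589), quantile normalisation (0.0763) and only the groups compared (0.101). The difference of the ozone changes between vagotomised and sham rats, -0.62 for Cd14, was not called (limma adjusted p 0.331). Besides these genes, Hnf4a, a hepatocyte transcription factor, was the only gene called in any list for this comparison, lower by 0.55 ± 0.11 (adjusted p 0.0199). That call was lost with quantile normalisation (adjusted p 0.0525), with only the groups compared (0.145) and without sham ozone library 1 or 2 or vagotomised ozone library 4 or 5 (up to 0.071).

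**Figure D3:**
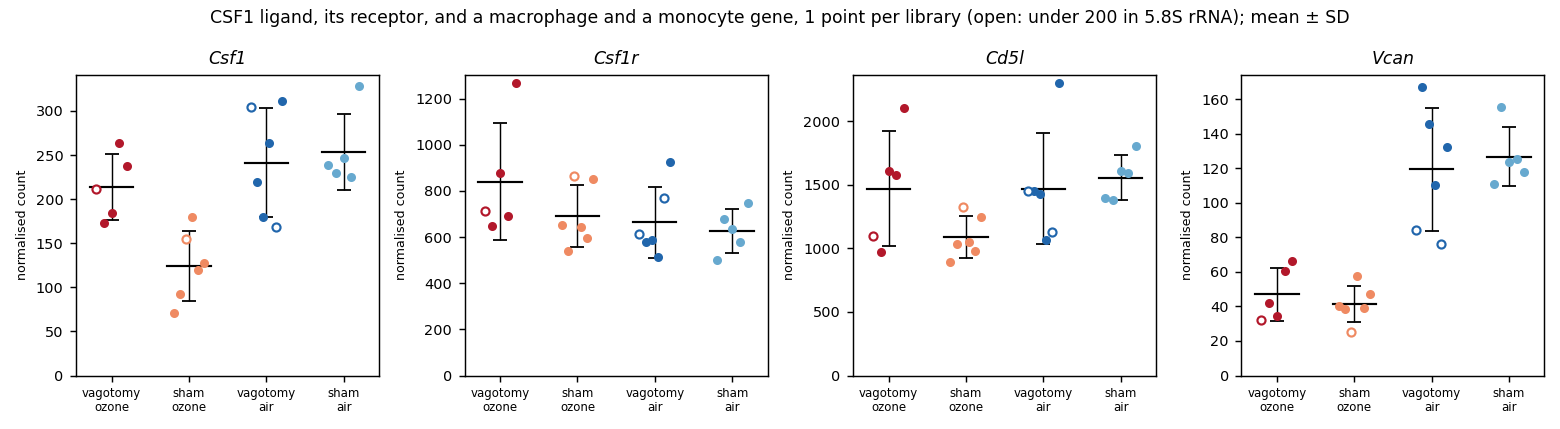
Normalised counts of Csf1, Csf1r, Cd5l and Vcan per library in vagotomised ozone, sham ozone, vagotomised air and sham air rats, with the group mean and SD; open points are the libraries low in 5.8S. Sham ozone rats have the lowest Csf1, at 70.8 to 179.9, and both ozone groups have less Vcan than both air groups.

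Some ratios between members differed between the 4 libraries low in 5.8S and the other 18. In those 4 the C1qa to C1qb ratio was 1.28, 1.39 and 1.58 (lowest, median and highest) against 0.716, 1.01 and 1.23 in the others. The C1qc to C1qb ratio was 1.34, 1.40 and 1.64 against 0.718, 0.915 and 1.08, and the Vsig4 to Csf1r ratio 0.602, 0.604 and 0.825 against 0.843, 1.09 and 1.34. These 3 ratios did not overlap between the low libraries and the rest, and are shown for that reason; of the 8 ratios computed the other 5 overlapped. Of the ratios of all 45 pairs of members, 13 did not overlap and 32 did. In all 4 libraries Vsig4 lay below every library of its own group that was not low in 5.8S. Cd68, C1qa and C1qc lay above every such library of their group in 3 of the 4. The 4 libraries belong to 3 of the 4 groups, and the cause of these differences was not tested. No such counts were made over other genes, so whether they are particular to the members was not tested.

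**Figure D4:**
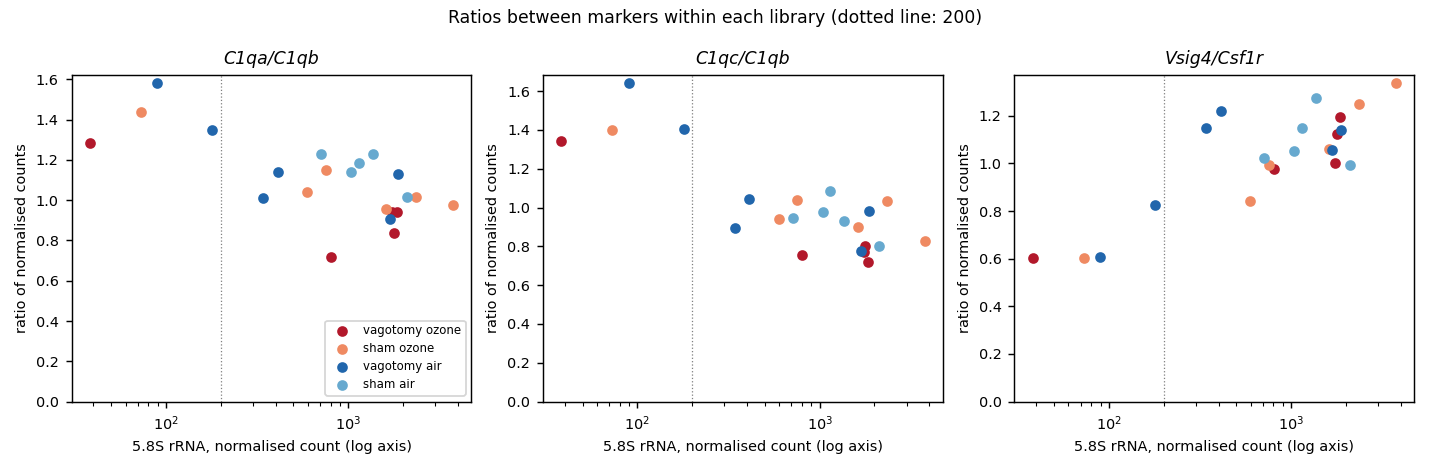
Ratios of C1qa to C1qb, C1qc to C1qb and Vsig4 to Csf1r in each library against its 5.8S ribosomal RNA level (log axis), coloured by group; the dotted line is at 200. The 4 libraries left of the line have C1q ratios above, and Vsig4 to Csf1r ratios below, all 18 others.

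The members varied more between rats of a group than most genes did. The within-group SD on the log2 scale over 22 libraries was 0.28 (Adgre1) to 0.43 (C1qc), where the median over 9648 genes with a mean of at least 50 was 0.24. Over the 18 libraries it was 0.23 (C1qc) to 0.35 (Marco), against a median of 0.20. The rats that were high in 1 member were mostly high in the others: library 5 of vagotomised ozone held the highest value of all 22 libraries for 7 members, and library 6 of vagotomised air the highest of its group for 7.

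Over the 18 libraries, after the group means were subtracted, all 45 pairs of members were positively correlated, with Pearson r from 0.51 to 0.95 and a median of 0.75. Cd163 and Csf1r were closest (r = 0.95, Spearman rho = 0.94, both permutation p = 1e-05, the smallest that the permutations can give, adjusted over 45 pairs 9e-05 and 0.00045). Their r was 0.90 without the 2 libraries whose Cd163 deviation lay farthest from its median. For each pair these 2 libraries were picked by the member listed first, so they can differ between pairs. C1qa and C1qc had r = 0.93 and rho = 0.82 (permutation p = 1e-05 and 7e-05, adjusted 9e-05 and 0.00063; 0.81 without 2 libraries). For Adgre1 and C1qa, r was 0.63 and rho 0.26 (permutation p = 0.00664 and 0.304, adjusted 0.0083 and 0.304). Their r was 0.04 without the 2 libraries farthest in Adgre1, and leaving out the extremes of 1 gene can by itself lower r. In 25 of the 45 pairs r stayed over 0.5 without the 2 libraries picked for that pair. The adjusted permutation p was under 0.05 in all 45 pairs for Pearson r and in 29 for Spearman rho. The permutations moved the deviations freely between groups and ignored that group means had been subtracted, so these p-values can be too small. Neither the share of positive pairs nor that of pairs under 0.05 was computed among other genes. Over all 22 libraries 42 pairs were positive, and Vsig4 with C1qc had the lowest r, -0.23. The pairs share their libraries and the scaling of each library.

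**Figure D5:**
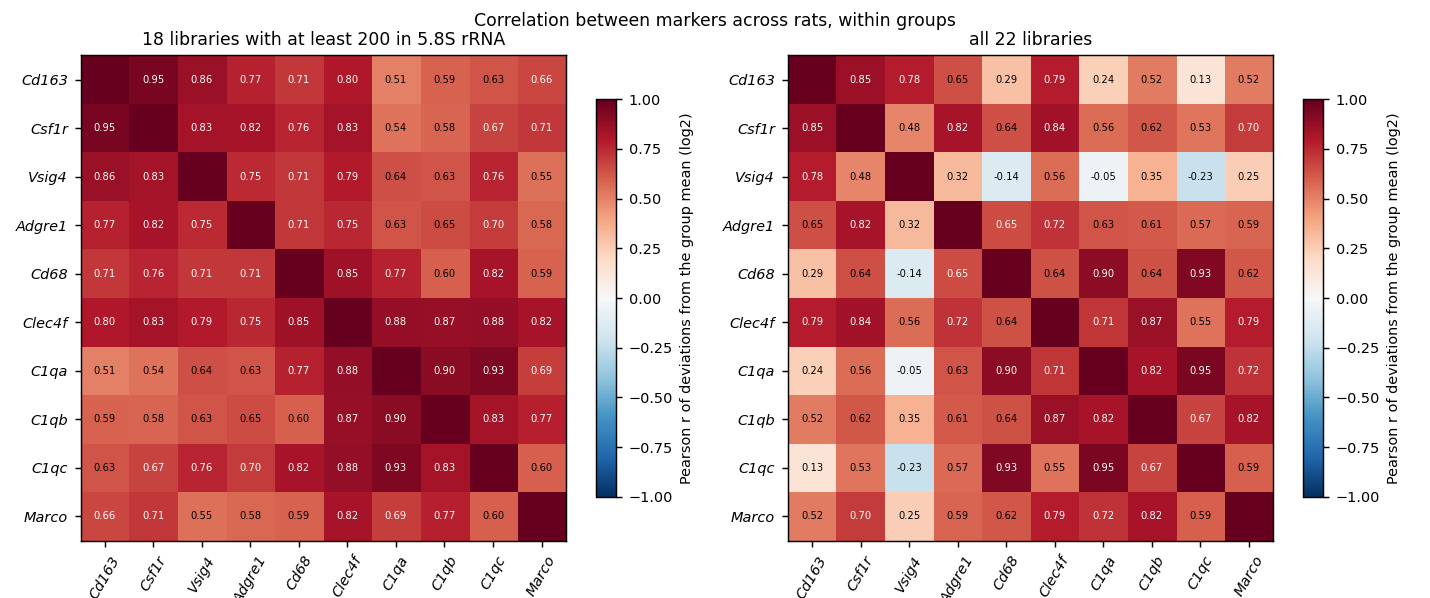
Pearson r between members over 18 libraries after subtracting group means, as a matrix with the value in each cell. Over the 18 libraries all cells are positive, from 0.51 to 0.95. Over all 22 they run from -0.23 to 0.95, with 42 of 45 pairs positive.

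Among the other genes, those with the highest mean r with the members over these 18 libraries were Cd4 (0.83), Ctss (0.83), Ptgs1 (0.82), Cfp (0.81) and Cd5l (0.80). Over 22 libraries the values were 0.74, 0.67, 0.51, 0.68 and 0.64. For single members the nearest gene was Grn for Clec4f (0.94, and 0.93 over 22 libraries), Cd53 for Vsig4 (0.93), Itgb2 for Csf1r (0.92), Cd4 for C1qc (0.91), Anxa3 for Cd68 (0.91, but 0.14 over 22), Cd5l for Marco (0.90), Clec4a1 for Adgre1 (0.90, but 0.40 over 22), Epb41l3 for Cd163 (0.90), Fcgr1a for C1qa (0.89) and Gnai2 for C1qb (0.87, but 0.53 over 22). These were picked as the highest of all genes, and are a description.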

How the data were processed

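Liver RNA of 22 rats was sequenced from total RNA with a PrepX library kit on an Apollo324 system, per the labels' protocols. The submitters' processing notes name STAR, Partek, DESeq, DESeq2 and the rn6 build, with no versions. The deposited table holds the authors' size-factor normalised counts, a signal unit; every value was a whole multiple of 1 step per library (100%, tolerance 0.001), which gave whole reads. No column was left out (0). Values were tested in R 4.3.3 with limma 3.58.1 on log2(normalised count + 1), over 12424 genes with a mean of at least 10 (83.0% of the table), on the 4 group means with a trended variance, two-sided. The fit was tested on simulated data with known changes. Alternatives included edgeR 4.0.16 and DESeq2 1.42.0 on the recovered reads. The main fit did not pair rats by replicate number: 31 same-numbered pairs had a median deviation correlation of 0.03 (-0.49 to 0.61), with 10 over 0.1. Pairs with different numbers were not computed, so whether the numbers pair rats was not settled. No 2 libraries of a group agreed within sampling noise (lowest chi-square per degree of freedom 9.29, 50 pairs). The members and lists were chosen with earlier results of these data known. Named beyond the members are up to 4 called genes per list, comparison and direction, by smallest p, and the genes closest to the members by correlation. Some genes that this rule names are not reported here. Listed genes under the minimum (24) had exact permutation tests. Correlations used 100000 permutations. Figures were drawn with matplotlib 3.10.9. Symbols that the table does not hold were not analysed here.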

Additional observations from a re-analysis of the deposited data

Results flagged for a closer look

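Single libraries that stood far from the rest of their group were looked for in 48 groups of values, those of the 10 members, Csf1 and the C1qc to C1qb ratio in each of the 4 groups, and 5 were found; chance alone flags about 1 group in 20. Library 3 of sham ozone, which is low in 5.8S ribosomal RNA, had 168.1 normalised counts of Cd68 (others 53.0 to 69.6), 1005 of C1qa (others 357 to 501) and 978 of C1qc (others 345 to 453). In library 1 of vagotomised ozone, also low in 5.8S, the C1qc to C1qb ratio was 1.34 (others 0.718 to 0.804). Csf1 in library 5 of sham air was 328 (others 225 to 246); that library is not low in 5.8S. What set these libraries apart was not tested.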

How the results depend on the processing

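The call of Cd68 in sham rats depended most on the settings. The number of called members there (1) was 0 with a pseudocount of 5, no minimum, quantile normalisation, the replicate block, edgeR or DESeq2, was 2 with equal totals, equal upper quartiles, array weights, a 5.8S covariate or without the 4 libraries low in 5.8S, and ran from 0 to 2 as each library was left out. In vagotomised rats (0) it was 1 with the replicate block, which takes the replicate number as a block, and 2 with array weights, and 0 to 0 with each library left out. Averaged over surgery (1) it was 2 with equal totals, upper quartiles, the 5.8S covariate or without the 4 libraries, 3 with array weights, and 0 to 2 with each library left out. The number of called members stayed at 0 under all alternatives in the vagotomy comparisons and the difference. Over all genes, sham ozone (3526) ran from 2972 to 3649 with each library left out, vagotomised ozone (2619) from 1854 to 2860 and was 3962 with array weights, and averaged ozone (4861) from 4403 to 5076. Vagotomy in ozone (166) was 86 with quantile normalisation, 14 with only the groups compared, 272 without the 4 libraries, 322 with the covariate, 270 with array weights, 366.0 with DESeq2, and 19 to 217 with each library left out. Vagotomy averaged (14) was 37 with no minimum, 3 with a minimum of 50, 4 with the block, 25 without the 4 libraries, 42 with array weights, 36 with edgeR, 114 with DESeq2, and 11 to 35 with each library left out. The difference (0) was 13 with array weights, 16 with DESeq2, and 0 to 1 with each library left out. With only the groups compared no averaged value or difference could be had. Of called genes, 51.3% were higher in sham ozone, against 33.9% with equal totals and 35.5% with upper quartiles, which moved the median of all genes from 0.0081 to -0.094 and -0.081; in vagotomised ozone 54.3% against 42.3% with upper quartiles, averaged 51.7% against 40.6% and 38.0%, and after vagotomy in ozone 60.2% against 85.5% with equal totals and 73.3% with quantile normalisation. Of 2490 recomputed values of the members, 94 turned sign, 0 of them called (adjusted p at least 0.459). These were, as log2 changes named by comparison: With edgeR C1qc (ozone, sham) 0.0329, C1qa (vagotomy, air) 0.0073. With DESeq2 C1qc (ozone, sham) 0.0409, Clec4f (ozone, averaged) 0.0055. With equal totals Marco (ozone, sham) -0.004, C1qb (ozone, averaged) -0.0336, C1qc (difference) 0.0027, Cd163 (difference) 0.0225. Without the 4 libraries low in 5.8S Marco (ozone, sham) -0.0388, Vsig4 (ozone, sham) 0.0466, C1qa (ozone, vagotomised) 0.0859, C1qc (ozone, vagotomised) 0.1067, C1qc (vagotomy, air) -0.1388, Vsig4 (vagotomy, air) 0.0871, C1qc (difference) 0.3838. With array weights Marco (ozone, sham) -0.0132, Vsig4 (ozone, sham) 0.0472, C1qa (ozone, vagotomised) 0.0541, C1qc (ozone, vagotomised) 0.0684, Clec4f (ozone, averaged) 0.0265, C1qc (vagotomy, air) -0.0443, Csf1r (vagotomy, air) -0.0932, C1qc (difference) 0.2645, Cd163 (difference) 0.1094. With log2 5.8S as a covariate Vsig4 (ozone, sham) 0.0439, C1qc (vagotomy, air) -0.0512, Vsig4 (vagotomy, air) 0.1231, C1qa (vagotomy, averaged) -0.0595, C1qc (vagotomy, averaged) -0.0093, Cd68 (vagotomy, averaged) -0.061, C1qc (difference) 0.0837. With equal upper quartiles C1qb (ozone, averaged) -0.0483. With quantile normalisation C1qb (ozone, averaged) -0.0318. With the replicate block Csf1r (vagotomy, air) -0.0164, Cd163 (difference) 0.1225. With each library left out, the range of the members that turned was as follows. For difference, C1qa -0.017 to 0.3259, C1qc -0.1744 to 0.1393, Cd163 -0.2641 to 0.0937. For ozone, averaged, C1qb -0.0376 to 0.083, Clec4f -0.0997 to 0.0385. For ozone, sham, C1qc -0.277 to 0.0228, Marco -0.0388 to 0.2197, Vsig4 -0.0927 to 0.0466. For ozone, vagotomised, C1qa -0.2616 to 0.0712, C1qc -0.2315 to 0.0093, Cd163 -0.0504 to 0.3074, Clec4f -0.0938 to 0.1824. For vagotomy, air, C1qa -0.1318 to 0.0362, C1qb -0.1087 to 0.0085, Csf1r -0.0347 to 0.135. For vagotomy, averaged, C1qa -0.0373 to 0.1341, Cd68 -0.0063 to 0.178, Clec4f -0.0642 to 0.0739, Vsig4 -0.0318 to 0.1628. For vagotomy, ozone, Adgre1 -0.1219 to 0.1714, C1qa -0.0459 to 0.2971, C1qc -0.0154 to 0.2983, Cd163 -0.0988 to 0.2335, Clec4f -0.0584 to 0.2178. Cd68 had the fewest reads of the members, 48 to 192 per library, and whether depth limits its test was not tested. The 24 listed genes under the minimum had no adjusted call, with 0 under each alternative and 11 of 96 at an unadjusted p under 0.05. The causes were not tested.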
